A study of Mus musculus with 18 samples.

Results

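The glucocorticoid receptor Nr3c1, the steroid-activating enzyme Hsd11b1 and 8 genes that the receptor is well known to induce (Fkbp5, Tsc22d3, Zbtb16, Sgk1, Klf9, Ddit4, Dusp1 and Errfi1) were followed in the lung of mice exposed to a mixture of polycyclic aromatic hydrocarbons (PAHs). These 10 genes were chosen by name, and every probe whose RefSeq accession belonged to one of them was taken. They had 11 probes, of 55681 probes and 20660 named genes on the array. The mice were adult male MutaMouse (transgenic strain on a BALB/C-DBA/2 background), about 12 weeks old, individually housed under a light/dark cycle. They were gavaged for 28 consecutive days with olive oil as the vehicle (n = 5) or with the 4PAH-Mix, which contains benzo[a]pyrene (BaP), benz[a]anthracene, benzo[b]fluoranthene and chrysene, in olive oil. The low dose was 12.5 (n = 4), the medium dose 25 (n = 5) and the high dose 50 mg BaP equivalents/kg-bw/day (n = 4), and every group carried the transgene. Lungs were collected 72 hours after the last dose under isoflurane, and the study's methods name the right lobe. RNA was taken from random sections of the tissue, so fewer cells of a type and less RNA per cell cannot be told apart. The time of day of collection and the corticosterone level of the mice were not given in the sources used here.

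The glucocorticoid receptor is a hormone-activated transcription factor. In mice its main ligand is corticosterone, an adrenal steroid whose blood level follows the day and rises with stress, and Hsd11b1 regenerates the active steroid from its inactive form inside cells. The bound receptor leaves a complex with heat shock proteins, enters the nucleus, induces genes such as Fkbp5 and Tsc22d3 and dampens inflammatory genes. In lung it is known for maturation of the alveolar epithelium and for control of inflammation, and several of its targets, Per1 among them, are also driven by the circadian clock.

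Each value below is a log2 ratio of Cy5-labelled lung RNA to Cy3-labelled Universal Mouse Reference RNA, a pool from mouse cell lines, on 1 array per mouse. A difference of group means is a log2 fold change, given with its standard error (SE) or its 95% interval from limma's linear model over all 4 groups. A gene was called when its Benjamini-Hochberg adjusted p over all probes was at most 0.05 and its fold change was at least 1.5, which is 0.585 on the log2 scale. The 11 probes were well above background in both channels on all 18 arrays, and none was saturated. Between 51.5% and 61% of all probes were well above background in Cy5. Of 57 measured marker genes of 14 cell types, 50 were well above background on every array, including the 5 of alveolar type 2 and the 5 of alveolar type 1 cells. The labels name each mouse, and the p-values measure the spread between these mice.

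None of the 10 genes was called at any dose. At the low dose 0 of 10 were called against 0.16% of all genes, at the medium dose 0 of 10 against 0.934% and, with the high dose, 0 of 10 against 1.51%. Between the high and the low dose 0 of 10 were called against 0.0823% of all genes. With no fold limit the count by limma was also 0 in each comparison, against 0.247%, 4.82% and 5.61% of all genes in the order of dose and 0.106% between the doses. At an unadjusted p under 0.05 there was 1 gene at the low (Dusp1), 0 with the medium and 2 with the high dose (Ddit4 and Errfi1), where 9.26%, 19.7% and 20% of all genes were. Between the high and the low dose 2 genes were under it (Dusp1 and Errfi1), beside 7.12% of all genes. With so few genes, 0 calls is also what a share near the background would give, so the size of each difference and its interval are what these data add.

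The 95% interval of the fold change lay wholly inside 1.5-fold in either direction for 9 of the 10 genes at the low dose, 8 with the medium and 9 with the high dose. The same held for 93.6%, 91.8% and 89.8% of all genes, and between the high and the low dose for 7 of the 10 beside 93.5%. Zbtb16 was the exception at each dose, and the interval of Tsc22d3 at the medium dose reached 0.587, just past the limit. The median log2 fold change of the 10 genes was 0.10, -0.03 and 0.12 in the order of dose, beside 0.01, 0.02 and 0.02 over all genes. At the high dose 7 of the 10 were on the higher side and 3 on the lower side, while 56.4% of all genes were on the higher side. These counts rest on loess within arrays. With median centring in its place the interval lay inside 1.5-fold for 1, 4 and 1 of the 10 genes in the order of dose. All 10 were then on the higher side at the high dose, from 0.01 to 0.52, Errfi1 turned from -0.25 to 0.01, and the median over all genes moved to 0.10.

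**Figure D1:**
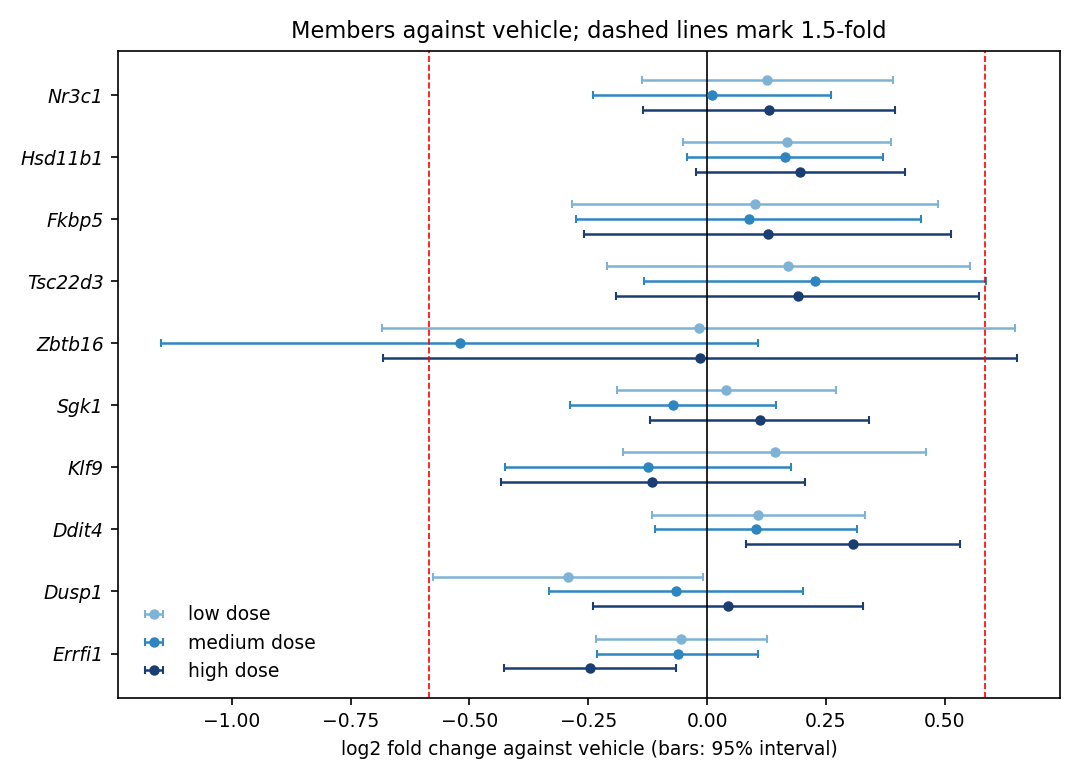
Log2 fold change against vehicle (x axis) of the 10 genes at the low, medium and high dose; points are limma estimates, bars their 95% intervals, and dashed lines mark 1.5-fold. Every interval but those of Ddit4 and Errfi1 at the high dose and Dusp1 at the low dose includes 0, and only Zbtb16, and barely Tsc22d3 at the medium dose, reach past a dashed line.

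The promoters show which of these genes carry the receptor's textbook element close to a start site. RefSeq promoter windows (GRCm38.p6, 250 bases before to 50 after a start) were found for 8 of the 10 genes, and Nr3c1 and Zbtb16 had none. There were 16 windows in all, and 6 of them were of Sgk1, which therefore had more chances of a match. The palindrome searched was AGAACA, 3 free letters, TGTTCT, on both strands, with up to 2 of its 12 fixed letters mismatched. It was found in 2 member windows, both of Sgk1, and in 1.84% of 32851 windows of the same length. A single arm (AGAACA or TGTTCT, which overlaps the palindrome) was in 4 member windows and in 19.0% of all windows. The palindrome with no mismatch was in 3 windows of the whole table (0.00913%), of Acnat2, Gm35041 and Sgk1. The stretch of Sgk1 (chr10:21993651-21993765, plus strand) is shown because it holds that match, in capitals. It lies 189 to 175 bases before the start in 1 of the 6 Sgk1 windows.
Sgk1: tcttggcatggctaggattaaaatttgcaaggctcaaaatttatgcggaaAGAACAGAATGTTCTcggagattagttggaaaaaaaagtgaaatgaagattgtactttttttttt
The E-box CACGTG, the letters through which clock activators are known to act, was in 3 member windows (Sgk1, Dusp1 and Fkbp5) and in 7.15% of all windows. A window of Per1, a target of both the receptor and the clock, held it too. These stretches are shown, with the E-box in capitals, because Per1 was called and Dusp1 and Fkbp5 were not. They lie at chr11:69098733-69098838 on the plus strand (Per1, E-box 166 to 161 bases before the start), chr17:26508543-26508648 on the minus strand (Dusp1, 126 to 121) and chr17:28486263-28486368 on the minus strand (Fkbp5, 169 to 164).
Per1: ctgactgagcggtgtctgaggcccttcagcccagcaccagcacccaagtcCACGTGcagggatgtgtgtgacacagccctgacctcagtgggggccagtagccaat
Dusp1: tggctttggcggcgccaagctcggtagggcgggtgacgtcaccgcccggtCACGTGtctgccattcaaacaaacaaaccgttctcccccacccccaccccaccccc
Fkbp5: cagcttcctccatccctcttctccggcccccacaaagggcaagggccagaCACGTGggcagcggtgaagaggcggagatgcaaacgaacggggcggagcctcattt
A match is a description of the letters, and known distal elements lie outside such windows.

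Nr3c1 itself, the receptor, differed little between groups. On its brighter probe the vehicle mice stood at log2 ratios of 0.23, 0.44, 0.03, 0.51 and 0.47, the low-dose mice at 0.75, 0.20, 0.54 and 0.36, the medium-dose mice at 0.25, 0.52, 0.61, 0.04 and 0.31, and the high-dose mice at 0.57, 0.40, 0.28 and 0.62. The 4 groups overlapped. Against vehicle the log2 difference was 0.13 (SE 0.13), 0.01 (SE 0.12) and 0.13 (SE 0.13) in the order of dose, the last with a limma adjusted p of 0.715. The second probe gave differences on the other side of 0 (-0.05, -0.03 and -0.06), each smaller than its SE. The probes disagreed in sign, and neither was called. The 95% intervals at the high dose were -0.14 to 0.40 on the brighter and -0.31 to 0.19 on the second probe.

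Hsd11b1, the enzyme that reactivates corticosterone, had the highest ratio to the reference of the 10 genes, with a vehicle mean of 5.64 ± 0.14 (SD, n = 5). Its mice stood at 5.78, 5.70, 5.44, 5.73 and 5.53 with vehicle, at 5.71, 5.67, 5.98 and 5.87 with the low, at 6.02, 5.98, 5.50, 5.67 and 5.83 with the medium and at 5.97, 5.80, 5.88 and 5.68 with the high dose. Of the 4 mice given the high dose, 3 exceeded every vehicle mouse, and the groups overlapped through the remaining mouse. Its difference from vehicle was 0.17 (SE 0.11), 0.16 (SE 0.10) and 0.20 (SE 0.11) in the order of dose, the last with a limma adjusted p of 0.393 and an exact permutation p of 0.0952. Under loess the 95% interval at the high dose, -0.02 to 0.42, reached up to a fold change of 1.33. Under scale normalization between arrays the high-dose difference was 0.53 (limma adjusted p = 0.19), and under median centring it was 0.40 (adjusted p = 0.803).

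Fkbp5, a co-chaperone that lowers the receptor's affinity for steroid and is among its most used readouts, spread widely inside each group. The vehicle mice stood at -1.48, -1.72, -0.996, -1.16 and -1.70, the low-dose mice at -1.68, -1.26, -0.69 and -1.61, the medium-dose mice at -1.11, -1.19, -1.80, -1.21 and -1.303, and the high-dose mice at -1.43, -1.38, -0.997 and -1.33. Each group held mice that lay high and mice that lay low, so the groups overlapped. Its difference from vehicle was 0.10 (SE 0.19), 0.09 (SE 0.18) and 0.13 (SE 0.19), with limma adjusted p from 0.831 to 0.944.

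Tsc22d3, which encodes the anti-inflammatory leucine zipper protein GILZ, stood at 1.78, 2.13, 1.77, 2.59 and 2.10 with vehicle, at 2.49, 2.31, 2.54 and 1.64 with the low, at 2.59, 2.61, 1.92, 1.98 and 2.41 with the medium and at 2.30, 2.21, 2.40 and 2.15 with the high dose. The high-dose mice lay close together, with an SD of 0.11 against 0.34 in the vehicle mice, and inside the range of the vehicle group. Differences from vehicle were 0.17 (SE 0.18), 0.23 (SE 0.17) and 0.19 (SE 0.18), with limma adjusted p from 0.614 to 0.888.

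Zbtb16, a zinc finger repressor also called PLZF, was the most variable of the 10. The vehicle mice ran from 3.18 to 4.98 (3.59, 3.18, 4.46, 4.98 and 3.64), the low-dose mice stood at 3.89, 4.48, 4.45 and 3.00, the medium-dose mice at 3.75, 4.11, 3.29, 3.099 and 3.00, and the high-dose mice at 3.97, 3.59, 4.15 and 4.11. The medium-dose group had the lowest mean, and its mice overlapped with the vehicle mice. The log2 fold change there was -0.52 (SE 0.30, 95% interval -1.15 to 0.11, limma adjusted p = 0.451), beside -0.02 (SE 0.32) at the low and -0.01 (SE 0.32) at the high dose. At the low dose the 95% interval of its fold change ran from 0.622 to 1.57, so a change of that size was not detectable with this many mice.

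Sgk1, a kinase that promotes sodium uptake and cell survival, had the smallest spread among vehicle mice, with values of -0.34, -0.19, -0.37, -0.26 and -0.29. The low-dose mice ran from -0.59 to 0.04, the medium-dose mice from -0.63 to -0.15 and the high-dose mice from -0.28 to -0.003, and 2 of the 4 mice given the high dose exceeded every vehicle mouse. The differences were 0.04 (SE 0.11), -0.07 (SE 0.10) and 0.11 (SE 0.11), the last with a limma adjusted p of 0.724. Klf9, a transcription factor that answers glucocorticoid and thyroid hormone, ran from 0.71 to 1.23 with vehicle, 0.83 to 1.71 at the low, 0.72 to 1.18 at the medium and 0.65 to 1.03 at the high dose. Its differences were 0.14 (SE 0.15), -0.12 (SE 0.15) and -0.12 (SE 0.15), with a limma adjusted p of 0.81 at the high dose.

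**Figure D2:**
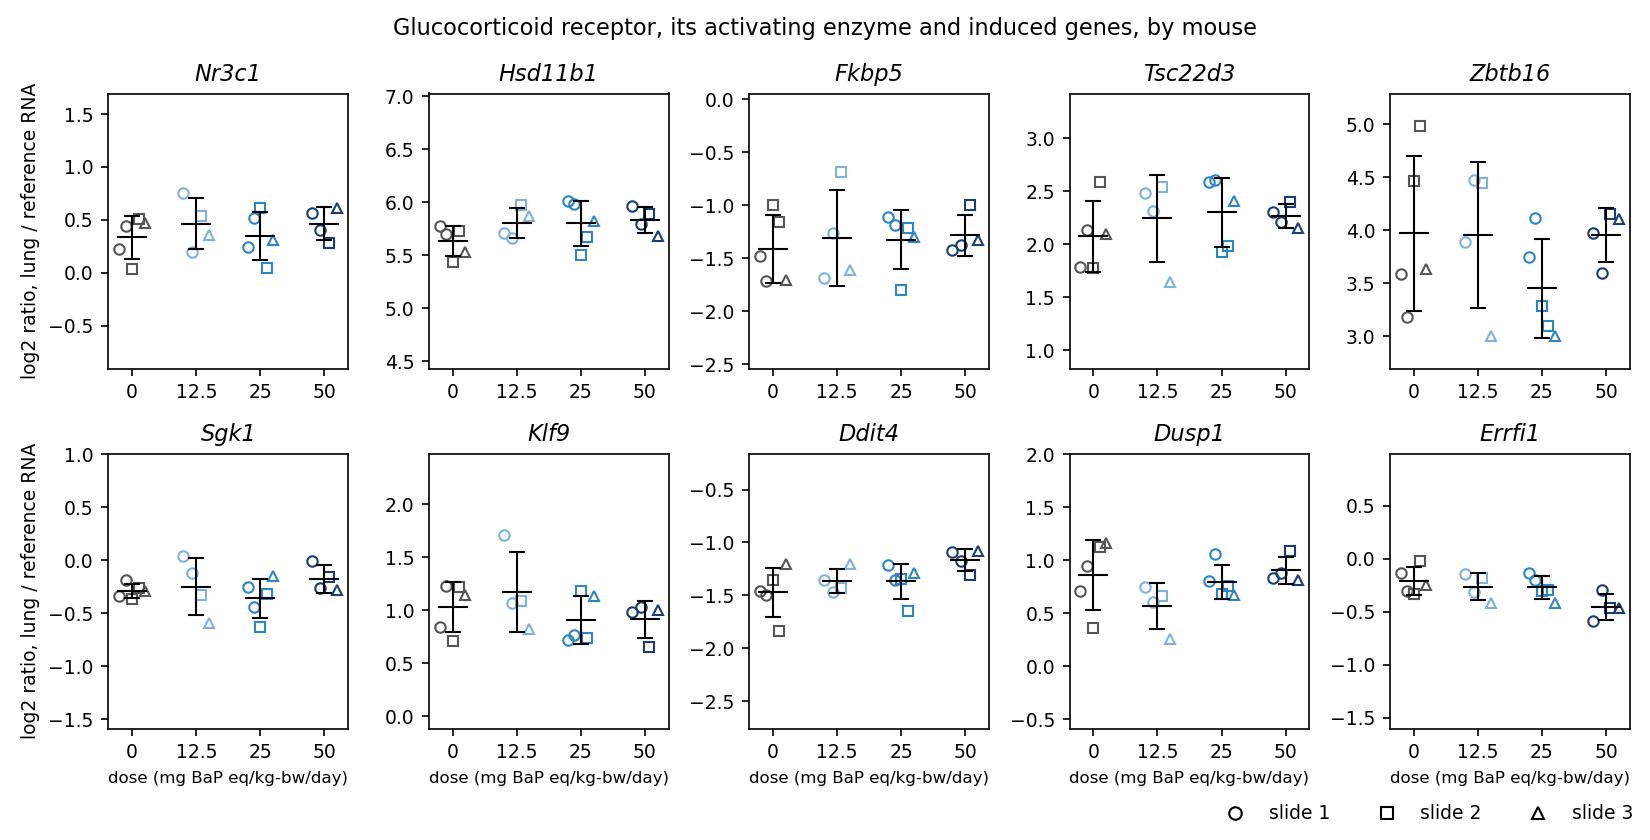
Log2 ratio of lung to reference RNA (y axis, the same span in each panel) of the 10 genes in each mouse by dose (x axis, categories, mg BaP equivalents/kg-bw/day); symbols mark the slide, horizontal bars the group mean and error bars the SD (n = 5, 4, 5 and 4 mice). Groups overlap in each panel against vehicle; Zbtb16 spans 3.00 to 4.98 while Errfi1 spans -0.59 to -0.02.

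Ddit4, which restrains mTORC1 and also answers hypoxia and DNA damage, came nearest to a rise. Its vehicle mice stood at -1.46, -1.50, -1.36, -1.84 and -1.21, the low-dose mice at -1.35, -1.47, -1.43 and -1.21, the medium-dose mice at -1.21, -1.36, -1.34, -1.65 and -1.29, and the high-dose mice at -1.09, -1.18, -1.31 and -1.08. At the high dose 3 of 4 mice exceeded every vehicle mouse. Its difference from vehicle was 0.11 (SE 0.11) and 0.10 (SE 0.10) at the lower doses and 0.31 (SE 0.11) at the high dose. There it was 1.24-fold with a 95% interval of 1.06 to 1.45, an unadjusted p of 0.00985 and a limma adjusted p of 0.131, so it did not pass. The two-sided exact permutation p was 0.0317, where the smallest that 5 against 4 mice can give is 0.00794.

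Errfi1, a feedback inhibitor of the EGF receptor, came nearest to a fall. The vehicle mice stood at -0.13, -0.30, -0.33, -0.02 and -0.25, the low-dose mice at -0.14, -0.31, -0.18 and -0.42, the medium-dose mice at -0.13, -0.20, -0.30, -0.30 and -0.42, and the high-dose mice at -0.59, -0.30, -0.46 and -0.47. At the high dose 3 of 4 mice lay below every vehicle mouse. Its difference from vehicle was -0.05 (SE 0.09), -0.06 (SE 0.08) and -0.25 (SE 0.09), the last with a 95% interval of -0.43 to -0.07, a limma adjusted p of 0.13 and an exact permutation p of 0.0397. Ddit4 and Errfi1 were the 2 of 30 exact tests at or under 0.05, and their differences lay on opposite sides of 0 under loess, while under median centring both were above 0 and no exact test was at or under 0.05.

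Dusp1, a phosphatase that switches off MAP kinases and is an early target of the receptor, had the largest difference between the high and the low dose, which did not pass the test. Its vehicle mice stood at 0.71, 0.94, 0.36, 1.12 and 1.16, the low-dose mice at 0.75, 0.61, 0.66 and 0.25, the medium-dose mice at 0.81, 1.06, 0.68, 0.76 and 0.68, and the high-dose mice at 0.84, 0.88, 1.09 and 0.81. Against vehicle the difference was -0.29 (SE 0.14, limma adjusted p = 0.607) at the low, -0.07 (SE 0.13) at the medium and 0.04 (SE 0.14) at the high dose. The difference of 0.34 (SE 0.14) between the high and the low dose had a limma adjusted p of 0.681. Every high-dose mouse lay above every low-dose mouse, but the share of all genes separated in this way was not counted. The other 9 genes overlapped between the high and the low dose.

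The genes differed in how much they varied between mice of the same group. The SD within groups was 0.58 for Zbtb16, 0.32 for Fkbp5 and 0.32 for Tsc22d3, which is more than in 99.2%, 93.5% and 93.3% of 13424 genes well above background on every array. Klf9 (0.26), Dusp1 (0.23) and Nr3c1 (0.21) came next, while Errfi1 (0.12) lay at the 26.5th percentile. From the lowest to the highest of the 18 mice, Zbtb16 spanned 3.95-fold, Fkbp5 2.17-fold, Klf9 2.08-fold and Tsc22d3 1.95-fold, against 1.49-fold for Errfi1 and Hsd11b1. The SD was smaller at the high dose than with vehicle in 9 of the 10 genes, Sgk1 being the exception, and in 56.4% of all such genes. At the low dose the count was 5 of 10 beside 45.8%, and at the medium dose 7 of 10 beside 43.9%. Of 4 heart muscle marker genes, Myh6, Myl7 and Tnnt2 varied more between mice than any of the 10, with an SD among vehicle mice of 2.60, 2.03 and 1.37, while that of Actc1 was 0.40. The mean level of the 4 ran from -1.96 to 1.48 among vehicle mice relative to their average, and their part in the spread of the 10 genes was not tested.

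To see whether the genes varied together from mouse to mouse, each mouse's deviation from its group mean was correlated over the 18 mice for the 45 pairs, with permutation tests (100000 shuffles within groups) adjusted over the 45. Of the pairs 33 were positive and 12 negative, with a median Pearson's r of 0.20. The signs of r were not counted for pairs of other genes. Whether the lean to positive values is particular to these genes was therefore not tested. None of the 45 pairs passed at an adjusted p of 0.05, by Pearson's or by Spearman's measure, and 6 had an unadjusted permutation p under 0.05. With median centring in place of loess 33 pairs passed, so these counts depend on the scaling of the arrays. The closest were Nr3c1 with Klf9 (r = 0.75, permutation p = 0.00242, adjusted p = 0.0544; rho = 0.76, permutation p = 0.00273) and Tsc22d3 with Dusp1 (r = 0.75, permutation p = 0.00119, adjusted p = 0.0535; rho = 0.73, permutation p = 0.00135). Without the 2 mice farthest from the median of the first gene r was 0.71 and 0.66, and with slide means removed 0.75 and 0.74. With group and slide means removed, r within the slides of 8 and of 6 arrays was 0.69 and 0.92 for Nr3c1 with Klf9. For Tsc22d3 with Dusp1 it was 0.80 and 0.77. Both pairs were picked for their high r among the 45 in these same mice, so no such cut is independent support. The slide of 4 arrays held 1 mouse of each group.

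Among the receptor's most used readouts r differed in sign, and none of these values passed the adjustment. For Fkbp5 it was positive with Zbtb16 (r = 0.66, adjusted permutation p = 0.256, and 0.70 without the 2 farthest mice) and negative with Klf9 (r = -0.53, adjusted permutation p = 0.369) and Nr3c1 (r = -0.44). For Tsc22d3 it was positive with Zbtb16 (r = 0.63), Sgk1 (0.59) and Errfi1 (0.56), each with an adjusted permutation p of 0.263, and the first fell to 0.35 without the 2 farthest mice. Ddit4 had a negative r with 8 of the other 9 genes, all but Nr3c1, but these signs differed by slide. Within the slide of 8 arrays its r was negative only with Klf9 (-0.07) and Dusp1 (-0.18), and it was 0.66 with Hsd11b1. Within the slide of 6 arrays it was negative with every other gene. Among 13423 genes well above background, those most like Fkbp5 by r of the deviations over 18 mice were Lipt1 (0.85), AU022793 (0.85), Ttc39c (0.85), Fkbp14 (0.79) and Stn1 (0.79). Those most like Tsc22d3 were Acss3 (0.89), Itpripl2 (0.86), Rab5b (0.85), Golga3 (0.84) and Sec62 (0.83). The r in the 2 lists are the highest among 13423 genes, and whether they exceed chance was not tested. The 2 lists shared no gene and held none of the 10. So few of the 13423 genes were listed that this absence says nothing about whether the 10 varied together.

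**Figure D3:**
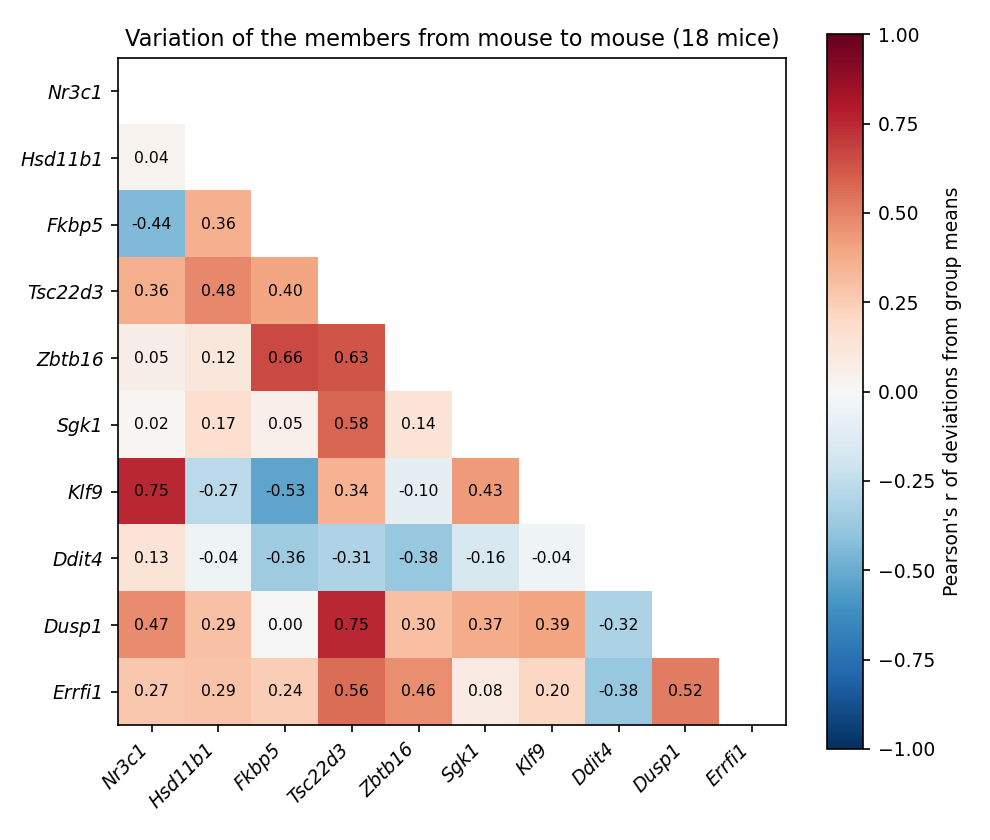
Pearson's r of the deviations from group means over 18 mice for the 45 pairs of the 10 genes (rows and columns; red positive, blue negative). Nr3c1 with Klf9 and Tsc22d3 with Dusp1 are the darkest red at 0.75, and the row of Ddit4 is mostly blue; no pair passed an adjusted p of 0.05.

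The wider pathway was described by 56 genes in 4 lists, 52 of them well above background on every array. Of the 56, 2 were called at the low dose (3.57%), 3 with the medium (5.36%) and 3 with the high dose (5.36%), beside the 0.16%, 0.934% and 1.51% of all genes. All lists here and below were chosen with earlier results of these data known, so these shares describe the lists and do not test the pathway. At the high dose 20 of the 56 were on the higher and 36 on the lower side. Under median centring the calls of Per1, Angptl4, Ccl5 at each dose and Cdkn1a at the low dose described below were lost, with each direction kept.

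Among the chaperones, the related receptor Nr3c2 and the steroid-handling genes, 0 of 11 were called at any dose, and the median log2 fold change at the high dose was -0.11. The largest differences at the high dose were those of Stip1, a co-chaperone that links Hsp70 to Hsp90 (-0.44, SE 0.22, limma adjusted p = 0.332), and Abcb1a, an efflux pump that exports steroids and drugs (0.40, SE 0.15, adjusted p = 0.165). Hsd11b2, the enzyme that inactivates corticosterone, was not well above background on any array.

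Of the receptor's coregulators 0 of 10 were called at any dose, with a median of -0.13 at the high dose, where 7 were on the lower side (4 under median centring, with a median of 0.11). The acetyltransferase Crebbp (-0.33, SE 0.09, limma adjusted p = 0.0295) and the Mediator subunit Med1 (-0.27, SE 0.07, adjusted p = 0.0373) were lower past the adjusted p but not past the fold limit. The related acetyltransferase Ep300 had the largest difference (-0.37, SE 0.11) with an adjusted p of 0.0666. For these 3 genes every high-dose mouse lay below every vehicle mouse, but the share of all genes separated in this way was not counted. Past the adjusted p alone were 2 of the 10 coregulators, beside 5.61% of all genes.

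Of 25 further genes that glucocorticoids are known to induce, 1 was called at the low dose, 2 with the medium and 2 with the high dose, and the last moved in opposite directions. Cdkn1a, the cell cycle inhibitor p21 that p53 also induces, rose at each dose. Its mice stood at -0.51, -1.07, -0.74, -0.45 and -0.83 with vehicle, at 0.57, 0.61, 0.57 and 0.93 with the low, at 1.27, 1.48, 1.03, 1.55 and 1.499 with the medium and at 1.78, 1.52, 1.94 and 1.75 with the high dose. No exposed mouse overlapped with a vehicle mouse. Here and for the genes below, the share of all genes separated in this way was not counted. The rise of Cdkn1a was 1.39 (SE 0.13, limma adjusted p = 5.92e-06), 2.09 (SE 0.12, adjusted p = 1.82e-09) and 2.47 (SE 0.13, adjusted p = 2.08e-10).

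Angptl4, a secreted inhibitor of lipoprotein lipase that fatty acid receptors also induce, fell at the high dose. Its vehicle mice stood at 0.60, 0.53, 1.66, 1.65 and 0.44, and the high-dose mice at -0.44, -0.39, -0.23 and 0.03, all of them below the vehicle mice. The log2 fold change was -0.40 (SE 0.23, limma adjusted p = 0.71) at the low, -0.63 (SE 0.22, adjusted p = 0.128) at the medium and -1.23 (SE 0.23, adjusted p = 0.00301) at the high dose. Bcl6 and Cdkn1c were also lower at the high dose past the adjusted p alone (-0.35 and -0.38, limma adjusted p = 0.044 and 0.0279). The median of the 25 was -0.05 at the high dose.

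Per1, a clock repressor that the receptor induces directly, was called at the medium dose. Its vehicle mice stood at -0.04, 0.56, -0.03, 0.64 and 0.55, the low-dose mice at 1.14, 0.77, 1.13 and 0.32, the medium-dose mice at 1.17, 1.29, 1.04, 1.27 and 1.14, and the high-dose mice at 0.68, 0.85, 0.63 and 1.097. Every medium-dose mouse lay above every vehicle mouse, and the other exposed groups overlapped with it. Its difference was 0.50 (SE 0.16, limma adjusted p = 0.332), 0.84 (SE 0.15, adjusted p = 0.00291) and 0.48 (SE 0.16, adjusted p = 0.111).

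Per1 belongs to the clock outputs as well as to the receptor's targets, and what changed it was not tested. Of 10 clock-controlled repressors and outputs, which include Per1, 4 were called higher at the low dose, 7 with the medium and 7 with the high dose, and 0 lower. Their median log2 fold change was 0.81, 0.85 and 0.97, beside 0.10, -0.03 and 0.12 for the 10 glucocorticoid genes. Of all genes 0.16%, 0.934% and 1.51% were called in the order of dose. Both lists were chosen with earlier results of these data known, so the contrast describes them and is no test. Under median centring 0, 1 and 4 of the clock outputs were called, and all 10 stayed on the higher side at each dose. Dbp, a clock-controlled transcription factor, rose by 2.22 (SE 0.27, limma adjusted p = 4.62e-05) at the high dose, and the clock activator Arntl fell by 1.59 (SE 0.18, adjusted p = 1.35e-05). Of 7 immediate early genes, which rise within minutes of stress or handling, 0 were called at any dose. Past the adjusted p alone 1 was higher and 1 lower at the high dose. Fosb was lower past it at the medium dose (-0.42, SE 0.11, limma adjusted p = 0.0337). The list's median at the high dose was 0.01 and rests on the scaling. It was 0.18 under median centring (6 of 7 higher) and -0.09 under scale normalization (6 of 7 lower).

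**Figure D4:**
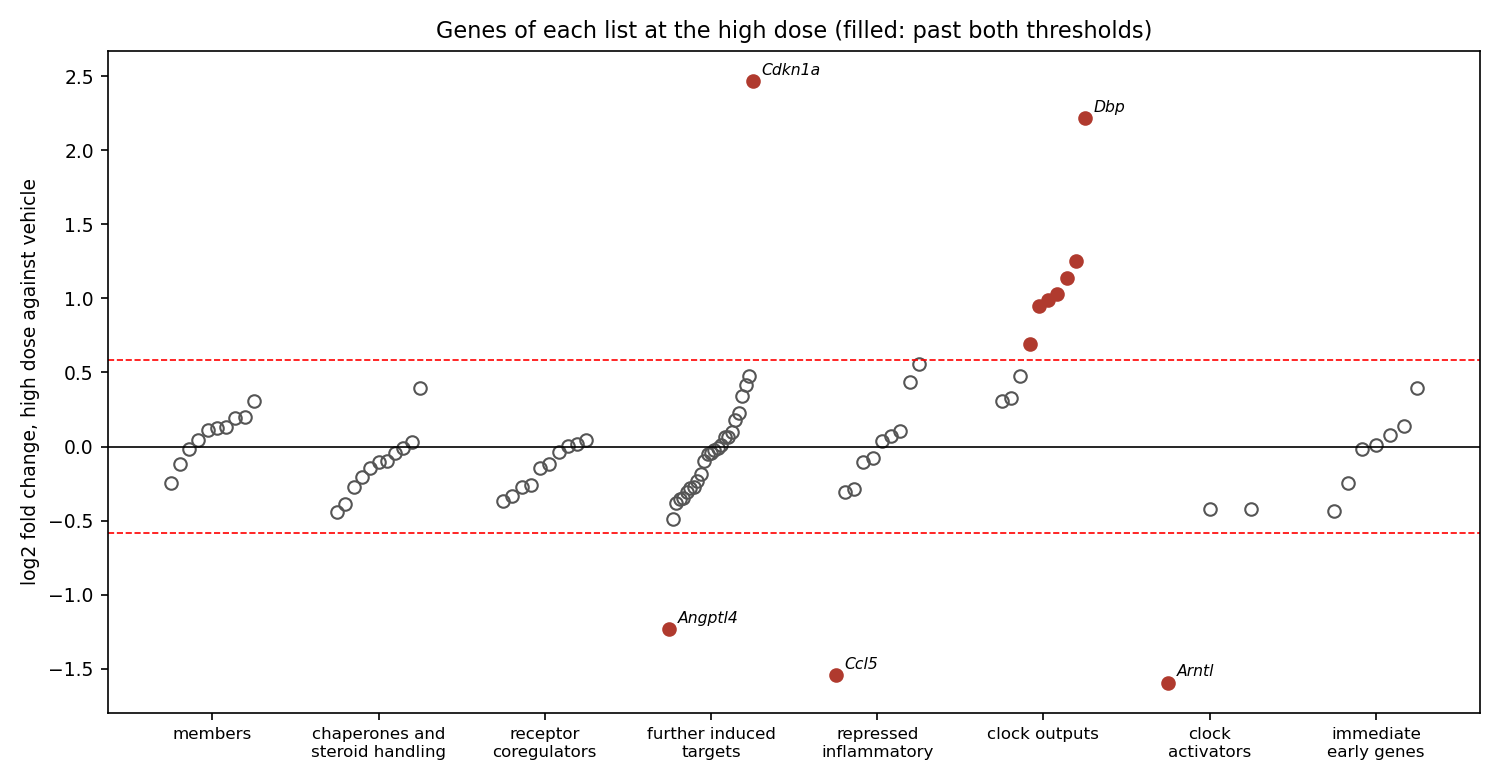
Log2 fold change at the high dose against vehicle (y axis) of each gene in 8 lists (x axis), with the 10 glucocorticoid genes as members; filled points passed both the adjusted p and the 1.5-fold limit, which dashed lines mark. The 10 members lie between -0.25 and 0.31 with no filled point, while 7 of 10 clock outputs (Dbp highest at 2.22), Cdkn1a, Angptl4, Ccl5 and Arntl are filled.

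Of 10 inflammatory genes that the receptor is known to repress, 1 was called, the same gene at each dose. Ccl5, a chemokine made largely by T and natural killer cells, stood at -0.02, -0.35, -0.35, -1.17 and -0.27 with vehicle, at -1.78, -1.06, -1.54 and -1.38 with the low, at -1.22, -1.31, -1.47, -1.57 and -1.14 with the medium and at -2.10, -2.45, -1.63 and -1.71 with the high dose. Only at the high dose did every exposed mouse lie below every vehicle mouse. Its difference was -1.01 (SE 0.19, limma adjusted p = 0.0307), -0.92 (SE 0.18, adjusted p = 0.00595) and -1.54 (SE 0.19, adjusted p = 5.28e-05). The call at the low dose was lost when any of 7 mice was left out (vehicle mice 1, 2, 3 and 5, low-dose mice 6, 9 and 10), with adjusted p of up to 0.127.

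Cytotoxic lymphocytes are among the cells that make Ccl5. Of 6 of their marker genes, 0 were called at the low and medium dose and 1 with the high dose, Gzma, which fell by 2.25 (SE 0.41, limma adjusted p = 0.00208), and all 6 were on the lower side at each dose. Under median centring Gzma was not called. Their mean level relative to vehicle ran from -0.56 to 0.35 in vehicle mice and from -1 to -0.53 in high-dose mice. Their part in the fall of Ccl5 was not tested.

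No other repressed target was called. Of the 10, Ccl5 included, 9 were on the lower side at the low dose, 7 with the medium and 5 with the high dose (6, 7 and 4 under median centring). Icam1, an adhesion molecule, was higher past the adjusted p alone with the medium (0.47, SE 0.11, limma adjusted p = 0.0207) and the high dose (0.43, SE 0.12, adjusted p = 0.0409). Il1b, the inflammatory cytokine, had a difference of 0.56 (SE 0.31, adjusted p = 0.418) at the high dose. The median of the 10 was -0.02 at the high dose, and Il6 was well above background on 3 of 18 arrays.

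Of 4 fibroblast markers, 0 were called at the low dose. At the medium and the high dose 3 were called lower (Col1a1, Col1a2 and Dcn, the last by -0.90, SE 0.23, limma adjusted p = 0.0262, at the high dose), and their mean level ran from -0.18 to 0.23 in vehicle mice and from -0.90 to -0.25 in high-dose mice. After median centring none of the 4 was called at any dose, with 3, 3 and 4 on the lower side in the order of dose. At the high dose the authors' table called 2, and the Cy5 channel by itself 1. Of 4 endothelial markers, Pecam1 was called higher with the medium (0.69, SE 0.11, limma adjusted p = 0.000968) and the high dose (0.74, SE 0.12, adjusted p = 0.000597). The remaining markers, Cdh5, Cldn5 and Kdr, were on the lower side at each dose and not called, Kdr at -0.38 (SE 0.09, adjusted p = 0.0168) with the high dose, and the list's median was -0.21 with the medium and -0.15 with the high dose. That direction rests on the scaling, since at the high dose 3 of the 4 were on the higher side under median centring (where Pecam1 was not called), scale normalization or the Cy5 channel by itself, with medians of 0.04, 0.24 and 0.10. Of 4 B cell markers, 2 were called higher with the medium dose and 0 with the low or the high dose, and all 4 were on the higher side at each dose under every scaling run, although neither call was kept under median centring. No marker of alveolar, airway, macrophage, neutrophil, T cell, heart muscle, fat or red cells was called at any dose. The part of these cell types in the values of the 10 glucocorticoid genes was not tested.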

How the data were processed

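RNA of 18 mouse lungs was hybridized to 2-colour arrays on 3 slides, each slide with mice of all 4 groups. The array's column on the slide followed the dose, so column and dose cannot be told apart. The authors deposited, per the file headers, median signal intensities of spot and local background (not normalized), spot flags, and a log10 ratio of Cy5 over Cy3 that the scanner software had background-subtracted and dye-normalized. A further deposited table held the authors' normalized log2 ratios and correlated with the values used here at r of 0.9955 or more on every array (column medians -0.0316 to -0.0191). The direction is Cy5 (lung) over Cy3 (reference), without dye swap.

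From the deposited intensities, log2 ratios without background subtraction were normalized by loess within arrays (control and outlier spots at weight 0; 215 to 307 outlier spots per array left out), and spots of a probe were averaged. The groups were fitted together in limma 3.58.1 (R 4.3.3), with Benjamini-Hochberg adjustment within each comparison over 55681 probes. The study's MAANOVA test was not run. Of the probes, 27235 were named through a RefSeq table by accession, and the probe of highest mean intensity stood for its gene. Exact permutation tests of single values were two-sided. The fit was tested on simulated data.

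The 10 genes and all lists were chosen with earlier results of these data known. Named beside the 10 genes were pathway genes called at a dose, the 2 of each pathway list with the largest change at the high dose and the 5 genes most like Fkbp5 and Tsc22d3. Crebbp, Med1, Bcl6, Cdkn1c, Icam1, Hsd11b2, Il6, Dbp, Arntl and the cell type markers were added once their values had been seen. The alternatives were normexp background correction (offset 50), median centring, the authors' table, the scanner software's ratios, scale and Aquantile normalization, Cy5 alone, slide as a block, a filter on dim probes, the compared groups alone, no fold limit, the mean of a gene's probes, and each mouse left out. The number of arrays limits the precision.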

Additional observations from a re-analysis of the deposited data

Results flagged for a closer look

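Of 40 groups of a gene (10 genes in 4 groups), 2 held a mouse farther from the others than Dixon's 95% critical value allows, and chance flags about 1 in 20 groups. For Fkbp5 at the medium dose, mouse 13 lay lowest at a log2 ratio of -1.803, with the next at -1.303 (gap over range 0.721, critical value 0.71). For Klf9 at the high dose, mouse 18 lay lowest at 0.654, with the next at 0.985 (gap over range 0.886, critical value 0.829). Neither gene was called when that mouse was left out.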

How the results depend on the processing

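The 10 glucocorticoid genes had 0 calls at each dose and between the high and low dose under each of 30 alternatives, 18 of which leave out 1 mouse. Of 900 recomputed differences of single genes, 890 moved by less than 1 SD within groups, 10 moved by more (8 under median centring, 2 of Hsd11b1 under scale normalization) and 0 became called. The lowest adjusted p was 0.0505 (Ddit4 at the high dose). Many of the 900 could not move, so their count overstates how far the values were tried. Aquantile normalization, no fold limit, the filter on dim probes and fitting the compared groups alone leave these differences as they are. So does leaving out a mouse of a group that is not compared. The mean of a gene's probes can change only Nr3c1.

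Median centring changed most. The genes whose 95% interval lay inside 1.5-fold fell from 9, 8 and 9 in the order of dose to 1, 4 and 1, the exact tests at or under 0.05 from 2 to 0, and the pathway genes called at the high dose from 3 to 1 (Cdkn1a), while pairs that passed rose from 0 to 33. The share of called genes that were higher at the high dose went from 48.7% of 312 to 88% of 50. With the authors' own ratios 1 pair passed and 1 exact test was at or under 0.05. With no fold limit 8 pathway genes were called at the high dose. Leaving out a mouse gave 6 to 9, 8 to 9 and 7 to 9 genes inside 1.5-fold and 3 pathway calls. The alternatives for intervals, exact tests and single pathway genes were chosen after seeing the data.

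Each pathway call but Cdkn1a at the medium and high dose was lost under median centring (Cdkn1a at the low dose 1.43, adjusted p = 0.353; Per1 0.95, adjusted p = 0.347; Angptl4 -0.91, adjusted p = 0.436; Ccl5 at the high dose -1.21, adjusted p = 0.207). Ccl5 at the low dose was called under 18 of 30 alternatives. The cause of these changes was not tested. No paired analysis was possible because no replicate number occurs in more than 1 group.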
